A study of Rattus norvegicus with 18 samples.

Results

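Old nucleus pulposus (20 months of age) was compared with mature nucleus pulposus (10 months) in the rat, using poly(A) RNA that had not been immunoprecipitated. The comparison uses 6 of the 18 libraries in the series, 3 input libraries per age, and 11708 of the 18923 listed genes, namely those whose FPKM reached 1 in 3 or more of the 9 input libraries. FPKM, the deposited unit, divides a transcript's fragments by its length and by the mapped fragments of the library. The series as a whole covers nucleus pulposus of Rattus norvegicus at 2, 10 and 20 months, and pairs every input library with one made after N6-methyladenosine immunoprecipitation. Strain, sex, genotype and treatment are not in the labels, so each group is described by age alone. Nothing in the labels ties a replicate to 1 rat or to a pool of discs, and a p-value here covers only library-to-library spread, part of which may be technical. Values after ± are SDs over the 3 libraries of an age.

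The nucleus pulposus is the hydrated core of the intervertebral disc. Its cells descend from the notochord and in rats keep the notochordal transcription factor Tbxt, simple-epithelial keratins and the surface protein Cd24 into adult life. They live without blood vessels and depend on glycolysis. They fill the space around them with type II collagen and with the proteoglycan aggrecan, whose charge holds water and carries load. With age the disc loses proteoglycan and water and its matrix becomes more fibrous, and cell stress, cell cycle arrest and matrix breakdown are the programmes most often followed in the ageing disc.

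The label was checked against defining genes. Ca3, a carbonic anhydrase gene, stood at 9507 ± 107 FPKM at 10 months and 10030 ± 606 at 20 months, Cd24 at 5074 ± 155 and 3865 ± 169.9, and Tbxt at 2468 ± 15.8 and 2184 ± 85.8, so the notochordal genes were high at both ages. Shh, another notochordal gene, was listed at 0 in all 6 libraries. The leukocyte gene Ptprc and the macrophage genes Adgre1, C1qb and C1qc were also listed at 0 in all 6, and the endothelial gene Cdh5 was at most 0.0135 FPKM. In bulk tissue, fewer cells of a type and less RNA per cell cannot be told apart, and this holds for every change below.

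The old libraries stood apart from the mature ones in measures that belong to no single gene. Their read length, taken from transcripts covered by a single read, was 141 bases against 132, and 80.5 ± 0.380% of their bases lay on listed transcripts against 85.8 ± 0.143%. The share of summed FPKM taken by ribosomal protein genes was 20.4 ± 0.315% at 20 months and 16.3 ± 0.139% at 10 months, and that taken by mitochondrially encoded genes 0.0911 ± 0.00828% and 0.591 ± 0.0520%. None of these ranges overlapped between the ages, and each gave an exact two-sided permutation p of 0.1, the smallest that 3 libraries against 3 allow. The libraries held 3.53 to 4.90 gigabases at 20 months and 4.35 to 4.74 at 10 months, as judged from FPKM and coverage. Because read length splits the libraries exactly as age does, a difference of age and a difference of sequencing cannot be told apart. The median chi-square between replicates, where counting noise alone gives 0.455, was 1.33 to 1.56 at 20 months and 0.559 to 0.665 at 10 months. Every change was therefore tested on 2 scales, as deposited and after dividing each library by its median ratio to the geometric mean library (scaled). A log2 change given alone below is as deposited, and its scaled value was higher by 0.0784 to 0.267 (median 0.258) over the 142 genes that the naming rule covers. The scaling factors were 1.08 in all 3 mature libraries and 0.885 to 0.910 in the old ones, which moved the median log2 change of all tested genes from -0.23 to -0.00031.

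As deposited, 1339 genes were higher and 6237 lower at 20 months at a limma adjusted p under 0.05 (11.4% and 53.3% of those tested), and after scaling 3125 were higher and 3017 lower (26.7% and 25.8%). Rising genes were thus 17.7% of the calls on the first scale and 50.9% on the second. Called in the same direction on both scales were 1339 genes up (11.4%) and 3017 down (25.8%), while 140 genes (1.20%) had opposite calls. Below, rose and fell mean called in that direction on both scales, and these 2 shares are the background for the count of every list. Because scaling raised every log2 change, the count that rose equals the rises as deposited and the count that fell equals the scaled falls, so the 2 counts of a list are each set by a different scale. Changes of at least 2-fold were called for 152 rising and 190 falling genes as deposited (1.30% and 1.62%), and for 262 and 105 after scaling (2.24% and 0.897%). Every old library lay on the same side of every mature one for 67.9% of the genes as deposited (higher for 12.6%, lower for 55.3%) and for 58.8% after scaling (29.6% and 29.2%), so a clean separation of 1 gene is common here. The change also moved with transcript length: with the genes in 5 equal groups by length, the median log2 change was -0.06 in the shortest group and -0.32 in the longest (scaled, 0.16 and -0.09). The part of read length, transcript length or the larger spread of the old libraries in any single change was not tested.

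**Figure D1:**
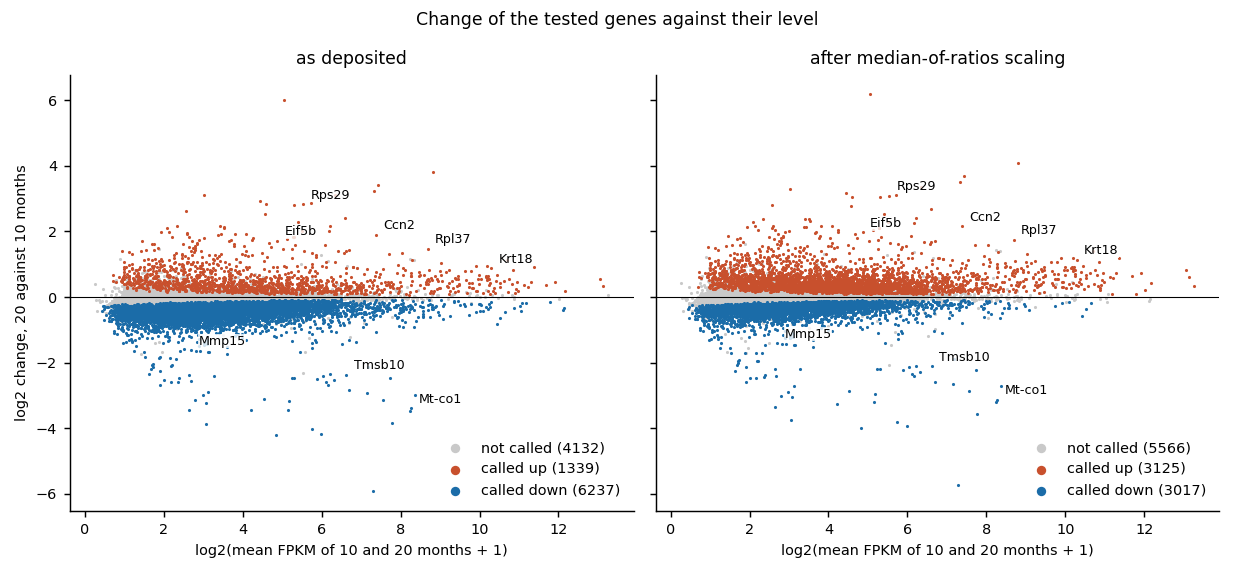
The log2 change of FPKM + 1 from 10 to 20 months (vertical axis) is plotted against the log2 mean FPKM + 1 (horizontal axis) for 11708 genes, as deposited (left) and scaled (right), with called genes in colour. The cloud lies mostly below 0 as deposited (1339 up, 6237 down) and is centred near 0 after scaling (3125 up, 3017 down).

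Some rows carry the symbol of a gene that RefSeq places on another chromosome. This was so for 73 of the 9907 tested rows with a symbol in RefSeq and for 4 of the named genes, the rows Rps29, Rpl37, Tmsb10 and Mt1. Each of the 4 has a single exon, reads of near-identical copies can be split between rows, and their values are those of the listed row and not of the gene of that name.

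The genes with the largest rises were a mixed group, and most of them were low or near 0 at 10 months. The row named for the ribosomal protein gene Rps29 (303 bases) read 8.52, 11.5 and 11.4 FPKM in the 10-month libraries and 91.7, 80.2 and 68.9 in the 20-month libraries, a log2 change of 2.83 (SE 0.16, limma adjusted p = 2.2e-06; scaled 3.08). Ppig, a cyclophilin with a serine- and arginine-rich tail, read 5.05, 4.74 and 4.61 and then 19.6, 22.7 and 21.3. Plk2, a stress-responsive kinase, read 3.43, 3.62 and 3.58 and then 16.2, 13.6 and 18.7 (log2 changes of 1.93 and 1.91). For these 3 rows the old libraries all lay above the mature ones with a wide gap. Zfp600, a zinc finger gene, rose from 0.831 ± 0.0158 to 7.26 ± 0.391 FPKM and the nucleosome-binding gene Hmgn5 from 0.847 ± 0.739 to 5.98 ± 1.19. An Rpl7a copy (ENSRNOG00000047737, 1 of 2 rows with that symbol) rose from 8.8, 13.3 and 139 to 246, 316 and 313, with 1 mature library far above the other two, and its log2 change of 3.43 carried an SE of 0.88. The other row, ENSRNOG00000049097, rose as well (log2 change 1.33, scaled 1.60). Both span 2424 bases on chromosome 3 with a 798-base transcript. Reads can be split between such rows, so the value of either is uncertain.

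Small structural RNAs and mitochondrial transcripts led the falls. Rn7sl1, the RNA of the signal recognition particle, read 66.6, 211 and 83.1 FPKM at 10 months and 4.9, 4.17 and 5.59 at 20 months (log2 change -4.18, SE 0.41, limma adjusted p = 3.4e-05). Of the 13 rows named Metazoa_SRP, after the same particle, 2 were tested and both fell (log2 changes of -3.86 and -3.18). The row Gm47305 (11.7 ± 10.4 to 0.186 ± 0.163) lies inside the second of these on the same strand and is no separate case. The RNA polymerase II regulator 7SK has 65 rows, of which 9 were tested, 4 fell and 2 rose. Among those that fell, ENSRNOG00000058555 read 40.5, 48.4 and 32.4 and then 5.16, 3.42 and 2.92. A second 7SK row (13.2, 0.565 and 27.6 against 0.118, 0.0810 and 0.0380) lost its call without any 1 of 5 of the 6 libraries, at limma adjusted p-values of 0.0506 to 0.0834. These RNAs are not polyadenylated messenger RNAs, they have many near-identical copies, and the values of single rows are uncertain for that reason. The row named Tmsb10, after thymosin beta 10, which binds actin monomers, read 160.0, 173 and 160.1 FPKM at 10 months and 35.1, 28 and 30.5 at 20 months. It spans 135 bases on chromosome 7, shorter than the 141-base reads of the old libraries and longer than the 132-base reads of the mature ones, and no fall of the gene is read from it.

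Markers of the nucleus pulposus moved in both directions, as did the tested genes as a whole (11.4% rose and 25.8% fell). Of 24 nucleus pulposus and notochordal markers listed, 16 were tested, of which 3 rose and 4 fell, with a median log2 change of -0.23 as deposited and 0.03 scaled. Krt8 and Krt18, which pair to form simple-epithelial filaments, rose. Krt8 read 3225, 3241 and 3272 FPKM at 10 months and 4343, 4415 and 4573 at 20 months (log2 change 0.45, SE 0.04, limma adjusted p = 1.6e-05), and Krt18 read 878, 885 and 895 and then 1494, 1648 and 1733 (0.87, SE 0.05). Both genes were separated cleanly between the ages and were lower at 10 than at 2 months, where they stood at 4322 ± 196 and 1229 ± 0.10. The other riser was Basp1, a membrane-bound signalling adaptor (0.22).

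Krt19 and Tbxt stood slightly lower as deposited and slightly higher once scaled, so their direction rests on the scale. Krt19 read 3687, 3719 and 3780 and then 3412, 3350 and 3247 FPKM, with a log2 change of -0.16 as deposited and 0.11 scaled, and Tbxt changed by -0.18 and 0.09. The scaled call of Krt19 was lost without any 1 of 5 of the 6 libraries (limma adjusted p of 0.0597 to 0.114). The members that fell were Ca12, a cell-surface carbonic anhydrase (8.64, 8.05 and 8.14 to 3.93, 4.75 and 3.54 FPKM, log2 change -0.88, scaled -0.65), the adhesion molecules Cdh2 (114 ± 2.5 to 85.8 ± 3.01) and Ncam1 (-0.54), and Sox6, a transcription factor of chondrogenic cells (-0.48). Sox9, its partner in cartilage gene expression, did not pass the test on either scale (41.2 ± 2.08 against 38.2 ± 7.18), and 1 of its old libraries lay below the rest.

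**Figure D2:**
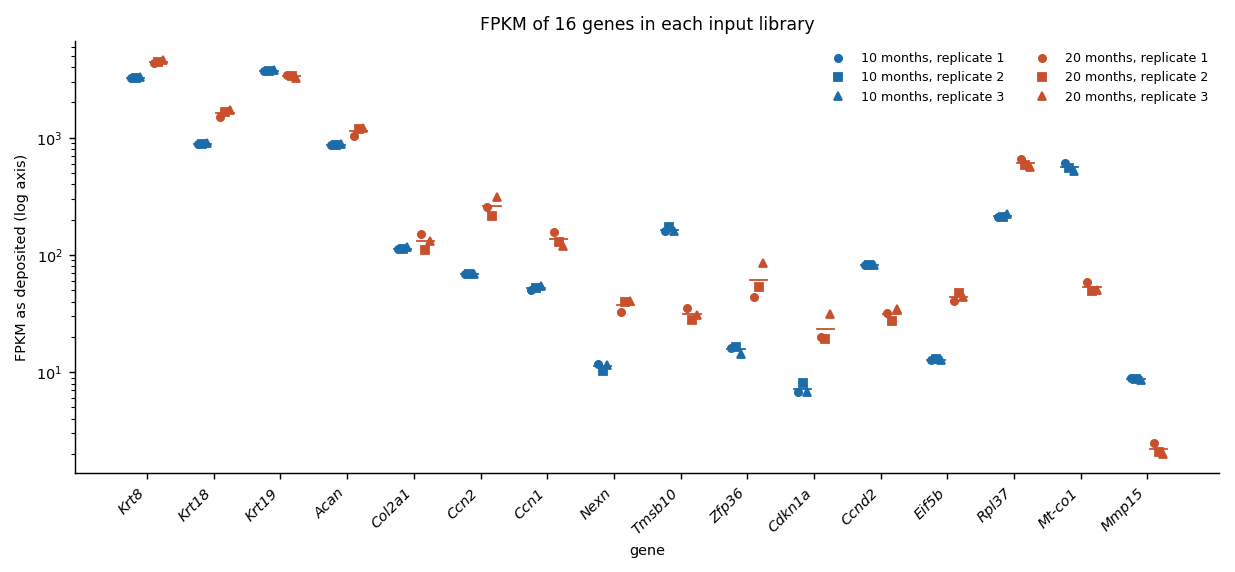
FPKM as deposited (log axis) of 16 genes in each of the 3 libraries at 10 months and 3 at 20 months, with a bar at each mean. Krt8, Krt18, Acan, Ccn2, Ccn1, Nexn, Zfp36, Cdkn1a, Eif5b and Rpl37 are higher in every old library, Krt19, Tmsb10, Ccnd2, Mt-co1 and Mmp15 are lower in every old library as deposited (Krt19 turns after scaling), and Col2a1 overlaps. The rows Tmsb10 and Rpl37 lie on another chromosome than the RefSeq genes of those names.

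In the cartilage-type matrix list the aggrecan gene was 1 of 3 that rose, and Hapln1 and Col11a1 were the 2 that fell. Acan, the core protein of aggrecan, read 867, 861 and 884 FPKM at 10 months and 1038, 1196 and 1209 at 20 months (log2 change 0.40, SE 0.05, limma adjusted p = 2.2e-04; scaled 0.66). Hapln1, the link protein that ties aggrecan to hyaluronan, read 64.5, 63.3 and 59.1 and then 46.6, 42.8 and 43.6 (log2 change -0.48, scaled -0.22), with lower values in every old library. Col11a1, a chain of the fibrils that carry type II collagen, read 16.4, 17.1 and 16.6 and then 11.3, 11.2 and 11.4 (-0.52). The ages did not overlap for any of the 3 genes. Acan had been at 1202 ± 15.3 at 2 months and Col11a1 at 23.1 ± 0.124. Col2a1, the type II collagen chain, read 112, 112 and 116 and then 152, 111 and 132, overlapping between the ages. Its change of 0.20 missed the threshold as deposited (limma adjusted p = 0.078) and passed it once scaled (0.47, limma adjusted p = 0.0017). Over the cartilage-type matrix list, 3 of 10 tested members rose and 2 fell (11.4% and 25.8% over all tested genes). The list's median log2 change was 0.03 as deposited and 0.26 scaled. The risers besides Acan were the matrilin gene Matn2 (0.12) and Comp.

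Among genes that build glycosaminoglycan chains, none of the 24 tested members rose on both scales and 9 fell (11.4% and 25.8% over all genes). As deposited 0 were called up and 19 down, and scaled 4 were called up and 9 down (median log2 change -0.32 as deposited and -0.07 scaled). Xylt1, which starts the chain on the core protein, read 81.4, 79.6 and 87.5 FPKM at 10 months and 48.5, 47.9 and 50.5 at 20 months (log2 change -0.75, SE 0.04, limma adjusted p = 1.8e-06; scaled -0.48). B3gat3, which completes the linker sugar, changed by -0.69 and Slc35d1, which carries nucleotide sugars into the secretory pathway, by -0.43. The chondroitin polymerising genes Chsy1, Chsy3 and Chpf were also among those that fell (-0.41, -0.69 and -0.62). Every old library lay above the mature ones for Acan, the core protein, and below them for Xylt1, B3gat3 and Slc35d1.

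Genes of collagen maturation moved both ways, in shares close to those over all tested genes (11.4% rose and 25.8% fell). Of 20 genes of collagen hydroxylation, folding and crosslinking 2 rose and 4 fell (median log2 change -0.30 as deposited and -0.06 scaled). Plod1, a lysyl hydroxylase, read 51, 52.7 and 53.1 FPKM and then 34.1, 34.1 and 33.6 (-0.61, scaled -0.35). Fkbp10, a collagen chaperone, read 39.8, 42 and 40.4 and then 28, 27.8 and 27.7. In both, the old libraries lay close together below the mature ones. The risers were the prolyl hydroxylase genes P3h3 (29.6 ± 0.806 to 40.4 ± 1.77) and P4ha2 (0.44). Among 10 basement membrane genes none rose and 4 fell (median log2 change -0.24 as deposited and -0.02 scaled), among them Lama5 (5.29, 5.19 and 5.52 to 2.83, 2.81 and 2.15), Nid1 (-0.79) and Nid2 (-0.46). Laminins and nidogens form the sheets on which epithelial and notochordal cells rest.

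Muscle and fibrous connective tissue genes were high in 1 old library, replicate 3. In that library 16 genes exceeded 5 FPKM and 4 times the highest of the other 5 libraries, against 0 to 3 in any other. They included the skeletal muscle genes Acta1 (1.73, 0.760 and 92.5 FPKM over the old replicates, 4.41, 5.56 and 4.88 in the mature ones), Ckm, Mb, Mylpf and Tnnt3. The summed level of the 18 listed muscle markers, of which 15 are in the table, was 29.9 to 30.2 FPKM at 10 months and 7.27 to 364.6 at 20 months. None of the 10 tested muscle markers was called with all libraries, and as deposited all 10 were called lower at 20 months without replicate 3 (after scaling Casq1 was not, at a limma adjusted p of 0.115). Acta1 changed by 0.37 with it and by -1.44 without it. The part of these muscle transcripts in the changes below was not tested.

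Some fibrous matrix genes rose, by an amount that rested on that library. Comp, a cartilage and tendon matrix protein, read 0.91, 0.924 and 0.931 FPKM at 10 months and 2.29, 4.51 and 20.3 at 20 months, with a log2 change of 1.92 that was 1.15 without replicate 3. Dcn, the small proteoglycan decorin, read 9.61, 10.2 and 9.64 and then 13.8, 19.7 and 66.4 (1.34, or 0.69 without it). In Comp and Dcn every old library exceeded the mature ones, and replicate 3 was far above the other two. Col3a1, a collagen of fibrous tissue, read 0.474, 0.463 and 0.529 and then 0.851, 2.22 and 9.81 (1.43, or 0.71 without it). All 3 stayed called without replicate 3, at limma adjusted p-values of 0.0011, 0.0052 and 0.015. Dcn and Col3a1 lost the call without any 1 of the mature libraries (as deposited, limma adjusted p of 0.0578 to 0.0644 and 0.0699 to 0.0747). Mgp, an inhibitor of mineralisation, read 7.41, 7.05 and 7.45 and then 11.7, 15.7 and 40.1 (log2 change 1.31, or 0.81 without replicate 3). Col1a1, the main collagen of the annulus, did not pass (0.58, or 0.05 without replicate 3). Prg4, the lubricating proteoglycan, rose from 1.81, 1.5 and 1.86 to 5.64, 3.52 and 6.03 (1.13, or 1.01 without replicate 3), the 1 of 7 tested annulus and tendon markers that did, and none fell. Of the tested fibrillar and type VI collagen and elastic fibre genes, Col3a1 was the 1 of 8 that rose and none fell, and Dcn and Ogn were the 2 of 5 small leucine-rich proteoglycans that rose, none of which fell (list medians of -0.10 and 0.26 as deposited, 0.17 and 0.52 scaled). Ogn (2.69, 2.4 and 2.43 to 3.01, 4.77 and 3.39) lost its call without mature replicate 2 or 3 (limma adjusted p of 0.0525 and 0.0507). The shares over all tested genes were 11.4% that rose and 25.8% that fell.

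**Figure D3:**
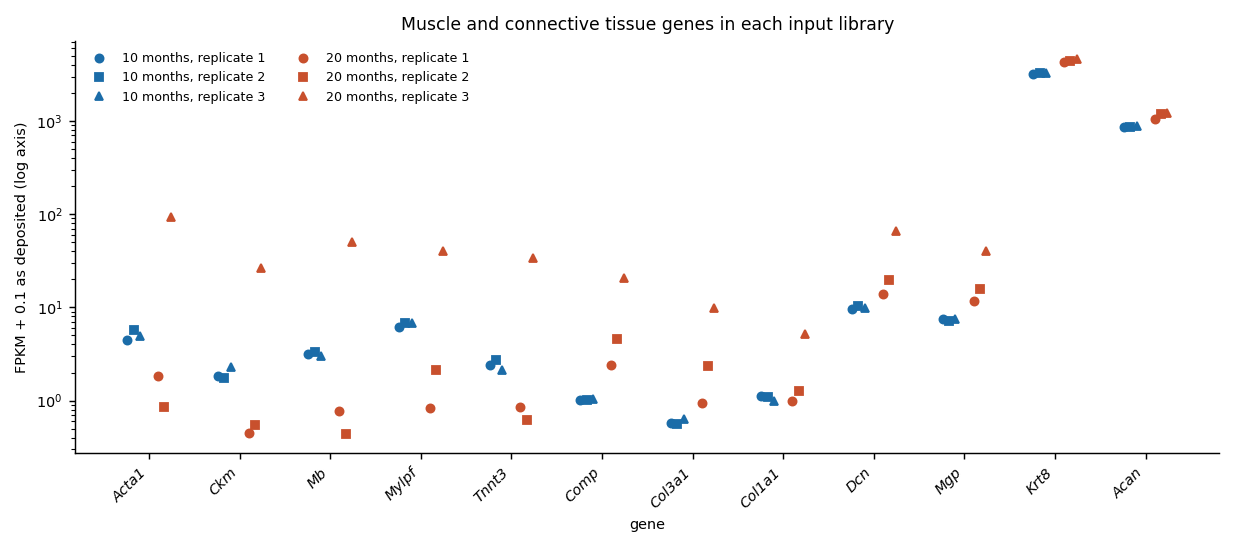
FPKM + 0.1 as deposited (log axis) of 5 skeletal muscle genes, 5 fibrous matrix genes and 2 reference genes of the nucleus pulposus in each library. The old replicate 3 (orange triangles) lies far above the other 5 libraries for the muscle genes, where the other 2 old libraries lie below the mature ones, while Krt8 and Acan are close among the old libraries.

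Matricellular genes that signal from the matrix to the cell moved apart. Ccn2, connective tissue growth factor, and Ccn1, its relative, are induced by stretch and by the transcription coactivator YAP with its DNA-binding partners, the TEAD proteins, and both rose. Ccn2 read 69, 68.3 and 69.2 FPKM at 10 months and 255, 216 and 314 at 20 months (log2 change 1.90, SE 0.11, limma adjusted p = 2.2e-06; scaled 2.16). Ccn1 read 50.7, 51.8 and 54.4 and then 157, 130.2 and 119 (1.35, SE 0.09). Every old library exceeded every mature one for both genes, by at least the full spread of the old libraries. At 2 months Ccn1 stood at 97.1 ± 2.17, between the later ages. Ccn3, of the same family, rose by 0.13. Sparc, a collagen-binding glycoprotein, read 659, 651 and 694 and then 434, 419 and 400.1 (-0.68, scaled -0.41), and Ccn4 read 15, 16.4 and 17 and then 10.3, 9.15 and 10.0. Of 13 tested members of this list 3 rose and 2 fell, against 11.4% and 25.8% over all tested genes. The list's median log2 change was 0.01 as deposited and 0.28 scaled.

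In the list of YAP and TEAD targets more members fell than rose, as was so over all tested genes (25.8% and 11.4%). Of 23 tested members 5 rose and 10 fell, with a median log2 change of -0.30 as deposited and -0.13 scaled. The risers besides Ccn1 and Ccn2 were Tgfb2 (0.46), the angiomotin relative Amotl2 (0.36) and the kinase gene Nuak2 (0.35). Tead1 itself read 19.8, 17.5 and 17.9 FPKM and then 8.43, 6.86 and 7.42 (log2 change -1.18, SE 0.08; scaled -0.94). Ptpn14, a YAP-binding phosphatase, read 8.72, 8.05 and 7.8 and then 3.81, 3.89 and 3.83 (-0.92), and Yap1 fell by 0.59 on the log2 scale. No old library reached the mature range in these 3 genes.

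The balance of actin cytoskeleton genes rested on the scale. As deposited 12 of 38 tested members were called up and 14 down, and scaled 20 were called up and 5 down, so that 12 rose and 5 fell on both (median log2 change -0.03 as deposited and 0.23 scaled). Nexn, an actin filament-binding protein, read 11.8, 10.2 and 11.5 FPKM at 10 months and 32.7, 39.3 and 40.2 at 20 months (log2 change 1.65, SE 0.08, limma adjusted p = 1.4e-06). Tagln, a calponin-family protein of contractile cells, read 802, 784 and 854 and then 1144, 1218 and 1200 (0.55). Both were higher in every old library, and lower still at 2 months (4.37 ± 0.229 and 416 ± 9.49). Cald1, Tpm1, Srf, Actb and Actg1 rose as well (1.29, 0.36, 0.38, 0.19 and 0.34). The falls were those of the uncertain Tmsb10 row (-2.37, scaled -2.10), Tagln2 (-0.44), the myosins Myh10 (-0.46) and Myh11 (-0.75), and Mrtfa, the actin-sensing coactivator of Srf (-0.59).

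The start regions of 3 of these risers are shown because they hold the hexamer bound by TEAD proteins. The sequences are from RefSeq on the GRCr8 build, from 200 bases before to 20 bases after the annotated start, on the gene's strand, with the letters GGAATG or their complement CATTCC in capitals. The regions are chr1:22624595-22624814 (minus strand) for Ccn2, chr2:237225670-237225889 (minus) for Ccn1 and chr2:243878133-243878352 (minus) for Nexn.
Ccn2: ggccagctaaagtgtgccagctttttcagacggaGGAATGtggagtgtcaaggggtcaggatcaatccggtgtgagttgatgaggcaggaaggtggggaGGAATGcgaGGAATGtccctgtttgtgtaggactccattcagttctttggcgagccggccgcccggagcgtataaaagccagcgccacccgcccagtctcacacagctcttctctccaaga
Ccn1: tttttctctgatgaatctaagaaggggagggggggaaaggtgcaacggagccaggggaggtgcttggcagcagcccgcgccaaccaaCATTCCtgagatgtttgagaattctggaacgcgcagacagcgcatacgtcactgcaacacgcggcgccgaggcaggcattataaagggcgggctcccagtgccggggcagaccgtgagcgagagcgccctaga
Nexn: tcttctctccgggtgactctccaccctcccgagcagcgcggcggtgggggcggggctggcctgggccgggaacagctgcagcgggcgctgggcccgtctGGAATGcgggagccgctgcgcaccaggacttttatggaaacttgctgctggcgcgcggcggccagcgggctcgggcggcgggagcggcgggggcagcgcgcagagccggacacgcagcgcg
In Ccn2 the hexamer began 166, 101 and 92 bases before the start, in Ccn1 113 bases before it on the other strand, and in Nexn 101 bases before it. Over all 33469 promoters of 300 bases (250 before and 50 after the start), 14.2% held the hexamer on either strand, and 10.9% of the 8161 promoters that matched tested genes did. It was found in 7 of 16 promoters of the YAP and TEAD list, 4 of the 5 that rose and 3 of the 11 others. That list was drawn up as targets of the TEAD proteins, so its share is no independent result. In the matricellular list 5 of 9 held the hexamer, 2 of the 2 that rose and 3 of the 7 others. Those 2 are Ccn1 and Ccn2, which are shown above and also stand in the YAP and TEAD list, so they add no independent case. In the actin list 11 of 31 held it, 3 of the 9 that rose and 8 of the 22 others. There it was no more frequent among the genes that rose. Such a match describes letters in a window and is neither a binding site nor a cause.

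Immediate early genes, the transcription factors and RNA-binding proteins that respond to stimuli within minutes, rose in part. Of 22 tested members 9 rose and 1 fell, with a median log2 change of 0.23 as deposited and 0.47 scaled. Zfp36, which destabilises inflammatory mRNAs, read 16.1, 16.5 and 14.4 FPKM at 10 months and 44.2, 53.1 and 84.8 at 20 months (log2 change 1.84, SE 0.19, limma adjusted p = 4.5e-05). Klf4, a zinc finger transcription factor, read 4.31, 4.21 and 4.47 and then 8.59, 8.64 and 14 (1.06). Atf3, a stress-induced factor, read 5.0, 4.9 and 4.76 and then 8.99, 10.4 and 18.1 (1.14). In each of the 3 every old library exceeded the mature ones and replicate 3 was highest. Without it the changes were 1.57, 0.85 and 0.86, still called. Maff, Junb, Myc, Klf6, Btg2 and Jund made up the other risers (0.19 for Jund to 1.14 for Maff). Without replicate 3, 9 members were called up and 6 down as deposited, against 9 and 2 with it. Ier3 fell (23.6, 24.9 and 25.1 to 14.8, 15.5 and 19.6), though its scaled call was lost without any 1 of 4 of the libraries (limma adjusted p of 0.0712 to 0.0776).

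The Zfp36 start region is at chr1:92799089-92799308 (minus strand, GRCr8, RefSeq). Letters that match the CArG box, the sequence pattern read by serum response factor, are in capitals.
Zfp36: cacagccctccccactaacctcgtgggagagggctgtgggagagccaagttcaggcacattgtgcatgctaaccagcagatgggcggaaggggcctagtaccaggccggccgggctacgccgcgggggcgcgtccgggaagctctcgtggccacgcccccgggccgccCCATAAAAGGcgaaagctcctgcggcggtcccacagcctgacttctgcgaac
The match began 32 bases before the start. Such a match was found in 1.64% of all promoters on either strand and in 1.27% of the 8161 that matched tested genes. In the immediate early list 3 of 15 promoters held it, 2 of the 7 that rose and 1 of the 8 others. Zfp36, shown because it holds a match, is 1 of those that rose. In the actin list 5 of 31 held it, 4 of the 9 that rose and 1 of the 22 others. These counts are small, the lists were chosen with earlier results of these data known, and the difference was not tested. A match describes letters in a window and is neither a binding site nor a cause.

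Among cell cycle genes, several inhibitors rose, the inhibitor Cdkn1b fell and several cyclins fell. Of 23 tested members of the list on cell cycle arrest and the nuclear lamina 7 rose and 9 fell (11.4% and 25.8% over all genes). The list's median log2 change was 0.06 as deposited and 0.32 scaled. Cdkn1a, the cyclin-dependent kinase inhibitor p21, read 6.76, 8.12 and 6.72 FPKM at 10 months and 19.8, 19.2 and 31.4 at 20 months (log2 change 1.55, SE 0.17, limma adjusted p = 5.6e-05). The damage-inducible gene Gadd45g read 4.91, 5.42 and 5.35 and then 10.8, 11.3 and 13 (1.02), and the inhibitors Cdkn1c and Cdkn2c rose by 0.55 and 0.36. Neither Cdkn1a nor Gadd45g overlapped between the ages.

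Ccnd2, a D-type cyclin, read 82.9, 81.4 and 82.8 FPKM and then 31.9, 27.4 and 34.8 (log2 change -1.37, SE 0.07; scaled -1.11). Ccng2, an atypical cyclin, read 22.5, 24.1 and 22.7 and then 9.28, 7.84 and 9.39 (-1.30). Ccnd1 (-0.97) and the inhibitor Cdkn1b (-0.53) fell too. In all of them the old libraries lay below the mature ones. Glb1, whose enzyme is the beta-galactosidase used to stain senescent cells, read 53.1, 52 and 56.4 and then 31.1, 30.9 and 28.3 (-0.82). Cdkn2a, which encodes the senescence marker p16, read 1.71, 1.75 and 2.37 and then 2.07, 1.55 and 1.07 and did not pass the test (-0.21, limma adjusted p = 0.24). Of 6 tested proliferation markers Pcna rose and Tyms fell, and each lost a call without single libraries (limma adjusted p of 0.063 to 0.0752 and 0.0504 to 0.0976). Mki67 and Top2a were at most 0.246 FPKM in any library.

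Among matrix-degrading enzymes and their inhibitors more members fell than rose, as was so over all tested genes (25.8% and 11.4%). Of 14 tested members 6 fell and 2 rose (median log2 change -0.37 as deposited and -0.15 scaled). Mmp15, a membrane-anchored metalloproteinase, read 8.96, 8.82 and 8.64 FPKM at 10 months and 2.5, 2.1 and 2.02 at 20 months (log2 change -1.62, SE 0.07, limma adjusted p = 5.5e-07; scaled -1.41). Adam17, the sheddase of tumour necrosis factor, changed by -0.54, the cysteine protease gene Ctsb by -0.60, and the metalloproteinase inhibitor gene Timp3 by -0.59. The lysosomal protease gene Ctsl was among the risers (514 ± 7.73 to 691 ± 41.8). Mmp3 and Adamts5, which degrade proteoglycan, were below the level for testing. Mmp3 read 0.266, 0.0473 and 0.0953 and then 0.229, 3.78 and 10.4, highest in the old replicate 3, and Adamts5 was at most 0.111 FPKM in any library.

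Ribosomal protein genes were the list with the most rises. Of 75 tested cytosolic ribosomal protein genes 57 rose and 1 fell, with a median log2 change of 0.39 as deposited and 0.66 scaled. Without the 8 rows that lie on another chromosome than the RefSeq gene, 53 of 67 rose and 1 fell (medians of 0.38 and 0.64). The Rpl37 row, 1 of those 8, read 213, 213 and 226 FPKM at 10 months and 662, 591 and 566 at 20 months (log2 change 1.48, SE 0.05, limma adjusted p = 4.0e-07). Rps20 read 650.3, 674 and 642 and then 1292, 1263 and 1196 (0.93). Rpl37a read 562, 589 and 586 and then 1036, 998 and 983 (0.80). For each of these the old libraries lay above the mature ones and differed little among themselves. Rpl26 changed by 0.64. The 1 gene that fell was Rpl36 (-0.84, scaled -0.57). These transcripts are short, and short transcripts stood higher than long ones over all genes, as stated above. Their share of the summed FPKM at 2 months was 14.0 ± 0.178%, below both later ages. Many of these genes have near-identical copies, between which reads could be split.

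Vertebrate ribosomal protein mRNAs begin with a C followed by a run of pyrimidines, the terminal oligopyrimidine tract through which growth signals control their translation. The tract, taken here as a C at the annotated start with at least 4 pyrimidines after it, is shown in capitals for Rpl37a (chr9:81747891-81748110, plus strand), from RefSeq on GRCr8.
Rpl37a: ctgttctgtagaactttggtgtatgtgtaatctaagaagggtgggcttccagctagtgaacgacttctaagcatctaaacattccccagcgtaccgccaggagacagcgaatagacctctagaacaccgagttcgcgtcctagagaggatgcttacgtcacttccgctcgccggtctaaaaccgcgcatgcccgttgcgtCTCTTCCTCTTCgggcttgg
It was found at the start of 17 of 52 promoters of tested ribosomal protein genes, in 11 of the 40 that rose and 6 of the 12 others, so it was no more frequent among the genes that rose. It stood at the start of 2.63% of all promoters and of 0 of 31 promoters of the translation factors. Annotated starts that are a few bases off miss the tract.

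Translation factors rose in 18 of 34 tested cases and fell in 1, Eif4g2 (-0.38), with 9 called down as deposited and a median log2 change of 0.16 as deposited and 0.42 scaled. Eif5b, which joins the ribosomal subunits, read 12.6, 12.8 and 12.6 FPKM at 10 months and 40.6, 47 and 44 at 20 months (log2 change 1.71, SE 0.06, limma adjusted p = 2.4e-07). The elongation factor genes Eef1b2 and Eef1d read 137 ± 4.61 and 62.9 ± 0.645 and then 210.3 ± 0.642 and 88.8 ± 0.809. Every old library exceeded the mature ones in these 3 genes. Spliceosome genes rose in 18 of 46 cases and fell in 2, Snrpf and Sf3b4, with 14 called down as deposited (median log2 change 0.02 as deposited and 0.28 scaled). Srsf5, a serine- and arginine-rich splicing factor, read 197, 204 and 193 and then 425, 417 and 448 (1.11, scaled 1.38). Snrnp70, of the U1 particle, read 100.2, 98.9 and 98.6 and then 178, 166 and 197 (0.85), and Srsf11 rose by 0.49.

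Mitochondrially encoded subunits of the respiratory chain fell, while the balance of the nuclear-encoded ones rested on the scale. Of the 13 mitochondrially encoded genes 12 fell and 1 rose, with a median log2 change of -2.46 as deposited and -2.21 scaled. Mt-co1, of cytochrome c oxidase, read 614, 552 and 524 FPKM at 10 months and 59.2, 49.1 and 50.4 at 20 months (log2 change -3.39, SE 0.09, limma adjusted p = 7.9e-08). Mt-atp8, of ATP synthase, read 623, 534 and 502 and then 40.2, 53.4 and 54.7 (-3.46). Mt-cyb, of complex III, read 269, 236 and 244 and then 37.1, 29.5 and 29.6 (-2.93). Every old library lay more than 4-fold below every mature one for these 3 genes. Mt-nd4 changed by -2.60 and Mt-co2 by -1.31. The exception was Mt-nd3, which read 8.78, 7.53 and 7.42 and then 17.1, 12.7 and 8.54 (0.58), with 1 old library inside the mature range.

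Among 74 nuclear-encoded subunits 22 rose and 1 fell. As deposited 22 were called up and 20 down, and scaled 51 were called up and 1 down (median log2 change -0.00038 as deposited and 0.27 scaled). Atp5me, of ATP synthase, read 43.7, 44.4 and 42.4 FPKM and then 69, 66.3 and 69.4 (0.64, scaled 0.90). Ndufa2, of complex I, read 26.9, 28.5 and 27.7 and then 45.4, 39.6 and 39.2 (0.56). Cox4i1, of cytochrome c oxidase, read 328, 339.9 and 337 and then 498, 456 and 432 (0.46). These 3 were higher in every old library. Ndufc2 was the gene that fell (-0.55). The fall of the mitochondrial transcripts, like every change here, cannot be told apart from the split in read length.

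In the glycolysis and hypoxia list, 3 of 34 tested members rose and 8 fell, shares close to those over all genes (median log2 change -0.18 as deposited and 0.08 scaled). Slc2a3, the high-affinity glucose transporter, read 53.1, 55.3 and 52.5 FPKM at 10 months and 19.4, 19.6 and 22.6 at 20 months (log2 change -1.34, SE 0.06, limma adjusted p = 5.5e-07; scaled -1.09). Hk2, which traps glucose in the cell, read 96.5, 95.6 and 93.7 and then 49.3, 49.5 and 54.1 (-0.89). Epas1, a hypoxia-inducible factor, read 63.4, 63.5 and 63.4 and then 43.8, 38 and 41.7 (-0.61), and Gpi changed by -0.46. None of these overlapped between the ages. The risers were Vegfa (0.27), Pgk1 (0.19) and Aldoa (0.12).

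Genes of sterol and fatty acid synthesis fell in more than 1 of 2 tested cases. Of 35 tested members 19 fell and 2 rose (median log2 change -0.43 as deposited and -0.22 scaled, against -0.23 and -0.00031 over all genes). Idi1, of isoprenoid synthesis, read 9.18, 8.63 and 7.84 FPKM at 10 months and 3.81, 3.9 and 4.09 at 20 months (log2 change -0.95, SE 0.06, limma adjusted p = 3.4e-06). Sqle, squalene epoxidase, read 17, 16.3 and 16.6 and then 11.2, 9.76 and 9.64 (-0.66). Hsd17b7 changed by -0.88, and Srebf2, the transcription factor of the pathway, by -0.55. Idi1, Sqle and Hsd17b7 were lower in every old library, and were higher at 2 months than at 10, with Sqle at 26 ± 0.869. The 2 risers were Insig1 (0.48), which holds the pathway's sensor in the endoplasmic reticulum, and Scd (0.36), a desaturase.

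**Figure D4:**
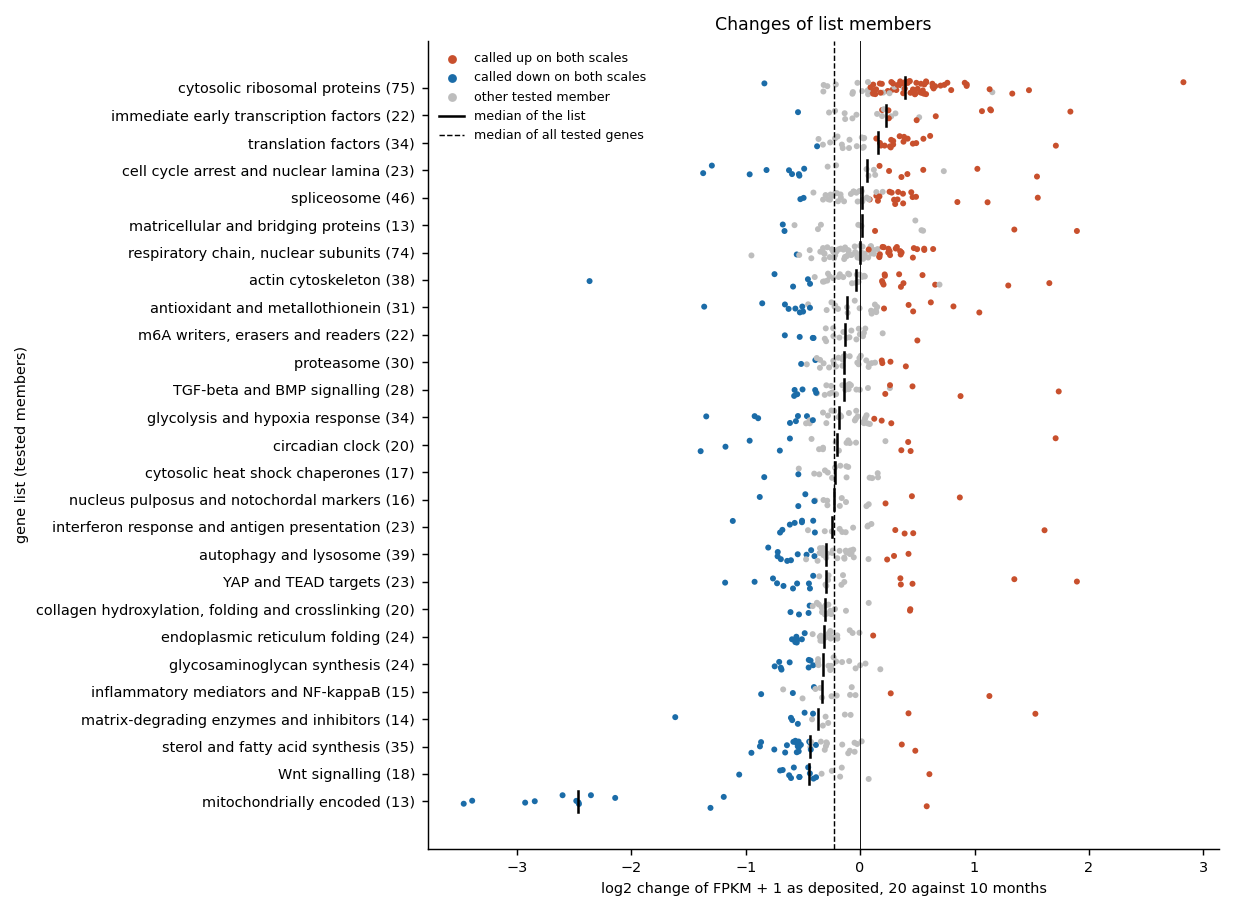
Each point is the log2 change of FPKM + 1 as deposited (horizontal axis) of 1 tested member of a list with at least 13 tested members (vertical axis), coloured by its call on both scales, with the list's median (bar) and the median of all tested genes (dashed line, -0.23). Ribosomal proteins (median 0.39) and immediate early genes (0.23) lie to the right, and Wnt signalling (-0.45), sterol synthesis (-0.43) and mitochondrially encoded genes (-2.46) to the left.

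Of 24 tested chaperone and folding genes of the endoplasmic reticulum 7 fell, a share close to that over all genes, and 1, Hsp90b1, rose (0.11, with overlapping libraries as deposited). The median log2 change was -0.32 as deposited and -0.05 scaled. Sel1l, of the degradation complex for misfolded proteins, read 54.9, 54.5 and 54.3 FPKM and then 37.1, 36 and 37.2 (-0.56). The lectin chaperone gene Canx read 196, 189.8 and 186 and then 124, 134 and 127 (-0.57). Dnajb11 and Ero1a fell by 0.55 and 0.55 on the log2 scale. In the cytosol, 2 of 17 heat shock genes fell and none rose (median -0.22 as deposited and 0.04 scaled). The small chaperone gene Cryab read 114, 110.4 and 112 and then 62.5, 60.4 and 64 (-0.84, scaled -0.57), and Dnaja1 changed by -0.54. Proteasome genes rose in 4 of 30 cases and fell in 2 (median -0.14 as deposited and 0.13 scaled), with Psmb4 at 100.5 ± 0.598 and then 133 ± 7.99, and Psmb2 at 78.4 ± 3.45 and then 54.6 ± 4.21. The other fall, of Psma4, lost its scaled call without any 1 of 4 of the libraries (limma adjusted p of 0.0618 to 0.111).

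Autophagy and lysosome genes fell in 10 of 39 cases and rose in 3, again close to the shares over all genes (median log2 change -0.30 as deposited and -0.03 scaled). Ulk1, the kinase that starts autophagy, read 48.4, 48.6 and 51.2 FPKM at 10 months and 29.3, 24.9 and 29.6 at 20 months (log2 change -0.80, SE 0.06, limma adjusted p = 1.1e-05). Atp6v1a, of the lysosomal proton pump, went from 73.2 ± 0.652 to 49.9 ± 2.03 (-0.55). The risers were Ctsl and the Atg8-family genes Gabarapl1 (0.30) and Map1lc3a (0.24).

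Metallothioneins bind zinc and buffer oxidants, and the rows Mt2A and Mt1 went opposite ways. Mt2A read 339, 341 and 337 FPKM at 10 months and 735, 684 and 680.5 at 20 months (log2 change 1.04, SE 0.04, limma adjusted p = 2.6e-07). The Mt1 row, which lies on another chromosome than the RefSeq gene, read 164, 168 and 172 and then 74.7, 56.8 and 63.7 (-1.36, SE 0.08). Both were separated between the ages by far more than the spread of either. Metallothioneins are near-identical copies, and reads split between their rows would make both values uncertain. Over the antioxidant list 6 of 31 tested members rose and 9 fell, against 11.4% and 25.8% over all tested genes. The list's median log2 change was -0.11 as deposited and 0.12 scaled. Catalase (Cat, 0.62) and superoxide dismutase (Sod1, 0.46) were among the risers. Gclc (-0.51), Nqo1 (-0.86) and their regulator Nfe2l2 (-0.63) were among those that fell.

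Wnt signalling fell in most of its tested members. Of 18, 12 fell and 1 rose, with a median log2 change of -0.45 as deposited and -0.24 scaled. Lrp6, a Wnt coreceptor, read 27.1, 27.9 and 27.9 FPKM at 10 months and 16.9, 16.7 and 16.3 at 20 months (log2 change -0.70, SE 0.03, limma adjusted p = 1.1e-06). Dkk3, a secreted Dickkopf relative, read 53.1, 52.6 and 52.5 and then 27.1, 22.7 and 24.9 (-1.06). The ligand gene Wnt5a changed by -0.68, and in all 3 the old libraries lay below the mature ones. Members that transmit the signal and members that restrain it, such as Sostdc1 (-0.62) and Apc (-0.44), were both among the falls. The receptor gene Fzd4 was the riser (6.42, 6.29 and 6.46 to 10.4, 9.88 and 10.5).

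In TGF-beta and BMP signalling, 5 of 28 tested members rose and 6 fell, against 11.4% and 25.8% over all tested genes. The median log2 change was -0.14 as deposited and 0.07 scaled. Id1 and Id4, BMP targets whose proteins block basic helix-loop-helix factors, rose. Id1 read 5.14, 5.66 and 4.0 FPKM at 10 months and 17.4, 15.6 and 23.8 at 20 months (log2 change 1.74, SE 0.15, limma adjusted p = 1.9e-05). Id4 read 71.1, 69.8 and 64.7 and then 132, 137 and 113 (0.88). The ages did not overlap for either. At 2 months Id1 stood at 13.8 ± 1.06 and Id4 at 96.7 ± 3.78. The feedback inhibitors Smad6 (-0.55) and Smad7 (-0.57), the receptor gene Bmpr1a (-0.39) and the repressor gene Ski (17.9, 16.7 and 17 to 11.3, 10.3 and 12.1) fell. In the IGF system 3 of 8 fell (median -0.22 as deposited and 0.01 scaled), which were Igf1r (21.9 ± 1.12 to 13.6 ± 1.16), Igfbp7 (327 ± 4.8 to 201 ± 30.7) and Irs1 (-0.51), and Irs2 rose (0.37).

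Inflammation and interferon genes moved both ways, as did the tested genes as a whole (11.4% rose and 25.8% fell). Of 15 tested inflammatory and NF-kappaB genes 2 rose and 3 fell (median log2 change -0.33 as deposited and -0.12 scaled). Nfkbiz (1.13) and the inhibitor gene Nfkbia (0.27) rose, and Nfkbib (9.29, 10.3 and 8.8 to 5.9, 4.42 and 4.05 FPKM), the kinase gene Ikbkb (-0.59) and Nfkb1 (-0.40) fell. Nfkb1 lost its scaled call without any 1 of 5 of the libraries (limma adjusted p of 0.0593 to 0.136). In the list of interferon response and antigen presentation, 4 of 23 tested members rose and 9 fell (median -0.25 as deposited and 0.01 scaled). Irf9, which carries the interferon signal to DNA, read 4.73, 4.92 and 4.7 and then 1.69, 1.41 and 1.95 (-1.11, SE 0.08). Irf1, an interferon-induced transcription factor, read 12.8, 13.1 and 12.1 and then 7.69, 8.4 and 7.67 (-0.61). Both were lower in every old library. The proteasome activator gene Psme1 rose (46.8, 45.4 and 44.5 to 61.9, 62.7 and 65.1). Ifitm3, an antiviral membrane protein, rose from 1.55, 1.81 and 1.72 to 8.51, 4.57 and 9.49 (1.61).

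Of 20 tested clock genes 4 rose and 5 fell, against 11.4% and 25.8% over all tested genes. The median log2 change was -0.20 as deposited and 0.05 scaled. Dbp, an output factor of the clock, read 78.4, 77.3 and 76 FPKM at 10 months and 34.6, 30.5 and 22.6 at 20 months (-1.39). Its relative Tef read 39.5, 39 and 38.6 and then 25.7, 23.3 and 21.9 (-0.70). The repressor gene Bhlhe41 read 38.4, 36.8 and 37.1 and then 17, 15.7 and 15.2 (-1.18). All 3 were lower in every old library. Bhlhe40 and Per3 changed by -0.61 and -0.97. Nfil3, which competes with Dbp for its sites, read 2.03, 1.91 and 2.13 and then 6.97, 8.48 and 11.7 (1.71), and Per1, Nr1d1 and Arntl rose by 0.44, 0.42 and 0.36. These genes cycle over the day, and the hour of tissue collection is not given in the labels. In the osmotic list, the taurine transporter gene Slc6a6 fell (18, 16.5 and 17.8 to 7.66, 7.08 and 10.3) and the kinase gene Sgk1 rose (6.65, 6.19 and 6.05 to 9.0, 10.4 and 11), out of 7 tested (median -0.11 as deposited and 0.12 scaled).

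The machinery of N6-methyladenosine, the RNA mark the series set out to follow, gave 1 rise and 4 falls among 22 tested writers, erasers and readers (median log2 change -0.13 as deposited and 0.10 scaled). Over all tested genes 11.4% rose and 25.8% fell. Mettl3, the catalytic writer, read 15.3, 15.2 and 15.3 FPKM at 10 months and 13.1, 12.3 and 13.2 at 20 months, a log2 change of -0.24 as deposited (limma adjusted p = 8.0e-04) and 0.01 scaled (limma adjusted p = 0.79). Its partner Mettl14 read 10.9, 11.6 and 10.8 and then 9.98, 7.98 and 10.0 (-0.23 and 0.01), and Wtap, the adaptor, changed by -0.08 and 0.18. For these 3 the sign turned with the scaling, and no direction can be given. Mettl14 also lost its call as deposited without any 1 of 4 of the libraries (limma adjusted p of 0.0525 to 0.0974). Virma, the scaffold of the writer complex, fell on both scales (8.78, 8.19 and 8.62 to 4.78, 5.07 and 5.26, -0.66, scaled -0.43), and so did the eraser Alkbh5 (27.1, 25.3 and 26.1 to 19.2, 19.3 and 19.7, -0.41, scaled -0.16), Rbm15 (-0.41) and the reader Igf2bp2 (-0.53), whose scaled call was lost without the first mature library (limma adjusted p = 0.0623). Fto, the other eraser, read 23.6, 23.4 and 24.9 and then 23.2, 24.9 and 25.6, changed by 0.03 as deposited and was called only once scaled (0.29, limma adjusted p = 0.0019). The riser was Fmr1, an RNA-binding protein (16, 15.9 and 15 to 24.3, 22.2 and 21.2, 0.50).

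Among markers of other cell types, hemoglobins rose. Of 5 tested red blood cell markers 4 rose and none fell (11.4% and 25.8% over all tested genes). Hba-a1 read 6.65, 5.83 and 5.17 FPKM at 10 months and 19.4, 21.1 and 19 at 20 months (1.60). Hbb read 1.8, 1.34 and 1.23 and then 9.78, 10.0 and 6.06 (1.95), and Hba-a2 changed by 1.57. The 2-month libraries were higher than both for Hba-a1 and Hba-a2, with Hba-a1 at 51.5 ± 3.5, and for Hbb they overlapped the old ones. The summed level of the red blood cell list was 13.5 to 13.8 FPKM at 10 months and 39.5 to 44.9 at 20 months, with the erythroid gene Alas2 at 0 to 0.135. Among macrophage and osteoclast markers 2 of 5 tested fell, Acp5 (9.21, 8.2 and 8.79 to 5.46, 4.38 and 4.97) and Cd68 (4.82, 3.77 and 4.09 to 2.91, 1.39 and 2.39, scaled call lost without mature replicate 1 or 3, limma adjusted p of 0.0801 and 0.0524). None of 13 lymphocyte and granulocyte markers written was tested, and their summed level was at most 0.760 FPKM in the old libraries. The pericyte gene Pdgfrb, 1 of 2 tested endothelial and pericyte markers, fell (3.94, 4.32 and 4.24 to 2.19, 2.02 and 1.94), as did Pth1r (113, 114 and 117 to 83.6, 73.4 and 71) and Mef2c (-0.52), 2 of 3 tested markers of hypertrophic cartilage. The lipase gene Lpl fell (80.7, 82.8 and 79.9 to 45.4, 41.5 and 38.6), with the adipocyte genes Adipoq and Plin1 at most 0.144 FPKM, and Plin4 rose (0.49). The nerve genes Nefl and Gap43 were at 0. S100b rose by 0.10 as deposited and 0.37 scaled but was lower after quantile normalization (-0.08). The part that these markers play in any list above was not tested.

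Isoform use was read as each transcript's share of the summed isoform FPKM of its gene. Of 2819 isoforms of 1348 genes tested, 203 (7.20%) in 112 genes differed in share between 10 and 20 months, 106 higher (3.76%) and 97 lower (3.44%). A higher share of 1 transcript means a lower share for the rest of its gene. The 2 directions are therefore not independent, and some shifts are counted more than once among the 203. When the 2-month libraries were left out of the fit, 60 isoforms were called, of which 50 were among the 203, so the count depends on taking the spread from all 9 libraries. It was 92, 73 and 90 without mature replicate 1, 2 or 3 and 129 without old replicate 3, and 55 isoforms were called in every fit that left out 1 of the 6 libraries.

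Fibronectin differed in the transcript it used. Fn1, the adhesive matrix glycoprotein, read 1023, 1025 and 1057 FPKM at 10 months and 1029, 997 and 1110 at 20 months over all its transcripts, overlapping between the ages (0.01, limma adjusted p = 0.8; scaled 0.28, limma adjusted p = 5.6e-04). The share of its 45-exon transcript ENSRNOT00000057585 (8136 bases, chr9:78900103-78969078, minus strand, as listed by the authors without a stated build) was 25.6, 22.3 and 24.0% in the mature and 49.3, 48.2 and 54.0% in the old libraries, and at 2 months it was 24.0 ± 0.538%. The 46-exon transcript ENSRNOT00000019772 (8331 bases) made up the rest, at 76.0 ± 1.64% and then 49.5 ± 3.10%. The log2 ratio of the shares changed by 1.70 (SE 0.14, limma adjusted p = 0.0011), and the call held without the 2-month libraries (limma adjusted p = 0.019) and in each fit without 1 of the 6 libraries (at most 0.0086).

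Spectrin and RNA-processing genes were further cases. Sptan1, alpha spectrin of the membrane skeleton, used its 55-exon transcript ENSRNOT00000082672 (chr3:8534476-8599260, plus strand) for 15.3, 16.3 and 14.2% of its FPKM at 10 months and for 63.1, 59.6 and 56.4% at 20 months, against 20.0 ± 4.51% at 2 months (limma adjusted p = 0.0010). In Lsm14a, a component of processing bodies, the main transcript ENSRNOT00000030186 went from 81.6 ± 1.53% to 44.4 ± 4.08%. Rsrp1, an arginine- and serine-rich protein gene, shifted to its longer transcript ENSRNOT00000082184 from 65.6 ± 3.09% to 87.0 ± 0.750%. The ages did not overlap in any of these genes.

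Short ribosomal protein transcripts also shifted. In Rps16 the 806-base transcript ENSRNOT00000026576 rose in share from 54.4 ± 0.594% to 83.7 ± 0.528% while the 603-base ENSRNOT00000093558 fell from 45.1 ± 0.513% to 14.7 ± 0.543%. The 656-base transcript ENSRNOT00000093537 of Rpl13a went from 37.7 ± 0.908% to 0.863 ± 0.712%. In Lyar, a nucleolar protein gene, the 1781-base transcript ENSRNOT00000084093 held 5.18 ± 2.30% at 10 months and 100% in all 3 old libraries, as in all 3 at 2 months, so that it was the mature libraries that stood apart. Transcripts of 1 gene that differ little in sequence are told apart by few reads, and whether the shares moved with read length was not tested.

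**Figure D5:**
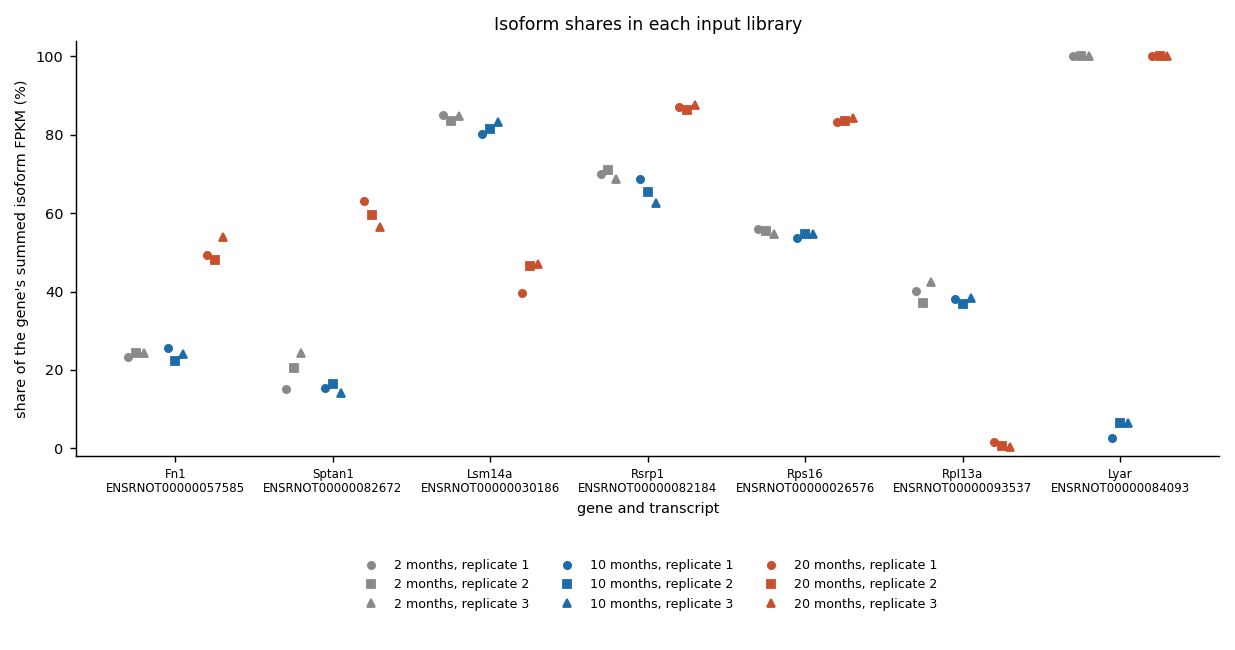
Share of the gene's summed isoform FPKM (%) held by 1 transcript of each of 7 genes in every input library at 2, 10 and 20 months. The 2- and 10-month libraries lie together and the old libraries apart for 6 of the genes (Fn1 at 22.3 to 25.6% against 48.2 to 54.0%), while in Lyar the 10-month libraries stand apart.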

How the data were processed

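The authors deposited FPKM values per gene and per isoform, computed from their own alignments. Deposited coverage, the mean read depth per base of each isoform, came from the same step, per the file headers. HISAT2 2.0.4, cutadapt 1.9, StringTie 1.3.4d, edgeR and DESeq2 are listed in the submitters' processing notes without a role. The genome build and annotation were not given in the sources used here. The 9 immunoprecipitated libraries were not analysed here.

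Genes with an FPKM of 1 or more in 3 of the 9 input libraries were tested on log2(FPKM + 1) with limma 3.58.1 (R 4.3.3; empirical Bayes with a trend, Benjamini-Hochberg adjustment over all tested genes, threshold 0.05), with all 9 input libraries in 1 fit. A fold change on this scale understates that of low genes. The same fit was run after median-of-ratios scaling. Isoform shares were tested as log2 ratios of an isoform to the rest of its gene with an offset of 0.5, for genes whose isoforms sum to at least 5 FPKM. The fits were tested on simulated data with no overall shift and the same spread at every age, unlike the deposited values. That test does not bear on how sure the calls are here. Counts are not in the files, so depth is known only in bases. Promoters came from RefSeq on GRCr8, and 8184 tested genes matched 8161 of them by symbol, leaving out rows on another chromosome than the RefSeq gene.

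The members, gene lists and tests were chosen with earlier results of these data known. Named genes are the 8 largest non-overlapping rises and falls with at least 5 FPKM, up to 3 or 4 members per list by smallest adjusted p, and 9 genes set by name. Genes named beyond that rule, to spell out short lists, were chosen after their values were seen. A few members of the lists are counted but not reported here by name. Alternatives were other scalings, pseudocounts of 0.1 and 5, other filters, a replicate block, array weights and leaving out each library.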

Additional observations from a re-analysis of the deposited data

How the results depend on the processing

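The number of genes called moved by less than 1.5 times under every alternative run, but its split between directions followed the scaling. Rising and falling genes numbered 3125 and 3017 after median-of-ratios scaling and 2654 and 3353 after quantile normalization. A fixed sum without ribosomal protein and mitochondrial genes gave 1619 and 5515. Rises of at least 2-fold numbered 262 and 246 under the first 2 of these scalings, 72 with a pseudocount of 5 and 93 at a mean FPKM of at least 5. Falls of at least 2-fold numbered 105, 95, 60 and 114 under the same 4 settings and 547 with a pseudocount of 0.1. Isoform shares called fell to 60 with only the 10- and 20-month libraries, and ranged from 73 to 205 when 1 library was left out. Signs turned after median-of-ratios scaling for Mettl3 (0.014), Mettl14 (0.0099), Wtap (0.18) and Krt19 (0.11), and after quantile normalization for Mettl14 (0.0034), Wtap (0.092) and S100b (-0.084). Acta1 ranged from -1.44 without old replicate 3 to 1.43 without old replicate 2. Without 1 library, 6904 to 7598 genes were called. Of the 142 genes that the naming rule covers, 4 lost their call with only the 10- and 20-month libraries. The same-numbered libraries of the 2 ages correlated at 0.0491, 0.0291 and 0.0293 in their deviations, and they share only a number. With that number as a replicate block, 7467 genes and 74 isoform shares were called, and all 142 kept their direction and side of the threshold. Apart from the signs that a scaling's own construction shifts, the cause of these differences was not tested. Depth is known only as 3.53 to 4.90 gigabases per library, and 3 libraries per age limit the precision.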
